A study of Homo sapiens with 12 samples.

Results

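The genes described here encode the nuclear subunits of respiratory chain complexes I to V, with the isoforms and near relatives that share their symbols. Members were protein-coding genes of the deposited count file whose symbol begins with NDUFA, NDUFB, NDUFC, NDUFS or NDUFV and a number, UQCR, ATP5 or COX with a number from 4 to 8, or is SDHA, SDHB, SDHC, SDHD or CYC1, and ATP5SL was dropped. This gave 91 of 58735 genes (19951 of them protein coding): 37 of complex I, 4 of complex II, 10 of complex III, 19 of complex IV and 21 of complex V. NDUFA4 and its paralogue NDUFA4L2 were counted with complex IV, where the NDUFA4 protein is now placed. Levels came from polyA RNA of C4.2B cells, a castration-resistant prostate cancer line derived from LNCaP, in 4 arms of 3 libraries each. Cells received DMSO, the AKT inhibitor ipatasertib at 0.25 µM (AKTi), the EZH2 inhibitor tazemetostat at 1 µM (EZH2i), or both agents at those doses (combination). Tazemetostat was given from 6 days before cotreatment in the EZH2i and combination arms, and RNA was taken in all arms after 24 hours of cotreatment in medium with charcoal-stripped FBS. Everything therefore describes 1 cell line at 1 time point, and the replicates were plates seeded side by side, so p-values measure the spread between these plates.

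The respiratory chain lies in the inner mitochondrial membrane. Complex I takes electrons from NADH and complex II from succinate, and both pass them to coenzyme Q. Complex III hands them to cytochrome c, and complex IV uses them to reduce oxygen. Complexes I, III and IV pump protons, and complex V, the ATP synthase, lets the protons return through its ring of c subunits to make ATP. A few core subunits of complexes I, III, IV and V are encoded in mitochondrial DNA, and every other subunit is encoded in the nucleus and imported. For several positions the nucleus holds more than 1 gene, with isoforms known from heart and muscle, lung, testis or hypoxic cells.

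Library totals ran from 14133755 to 22276417 counts. All 9 prostate luminal markers examined were detected, with summed levels of 3866 to 8849 CPM (library-scaled counts) in each library, against 6.14 to 20.6 CPM for 8 markers of other cell types, and KRT5 of basal cells was at 0 in every library. Of the 91 members, 83 passed the filter on low counts. Differences were tested by the quasi-likelihood method of edgeR, with p-values adjusted by Benjamini-Hochberg over all 16646 genes tested. Most genes of these cells changed, so the scaling matters. Between the combination and DMSO, the middle log2 change over the genes tested was 0.06 under the TMM scaling used here, and 0.26 and 0.25 with scaling by library size or upper quartile. Each change is thus relative to other genes, and less RNA of a gene per cell cannot be told apart from more RNA of other genes.

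Members of every complex fell in the combination. Of the 83 tested members, 77 were lower than in DMSO and 2 were higher, against 35.2% of all tested genes called lower and 38.0% called higher. Complexes III and V held only lower members (10 of 10 and 19 of 19), with median log2 fold changes of -1.26 and -1.28. All 4 genes of complex II were lower (median -0.86), as were 33 of 36 genes of complex I (median -0.83) and 11 of 14 of complex IV (median -0.77). The median of complex IV was -0.45 with DESeq2 and -0.47 with a filter of 1 count in total, both of which test 88 members and so take in isoforms with few counts. That of complex II was -0.52 without members covered to at least 90% by an overlapping gene where they also overlap a same-strand gene. This alternative was chosen after seeing the data. The median over all members was -0.96, and counts assigned to members were 1.66% ± 0.072 of a library (SD, n = 3) in DMSO, 1.45% ± 0.014 with AKTi, 1.25% ± 0.049 with EZH2i and 0.931% ± 0.00018 in the combination.

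**Figure D1:**
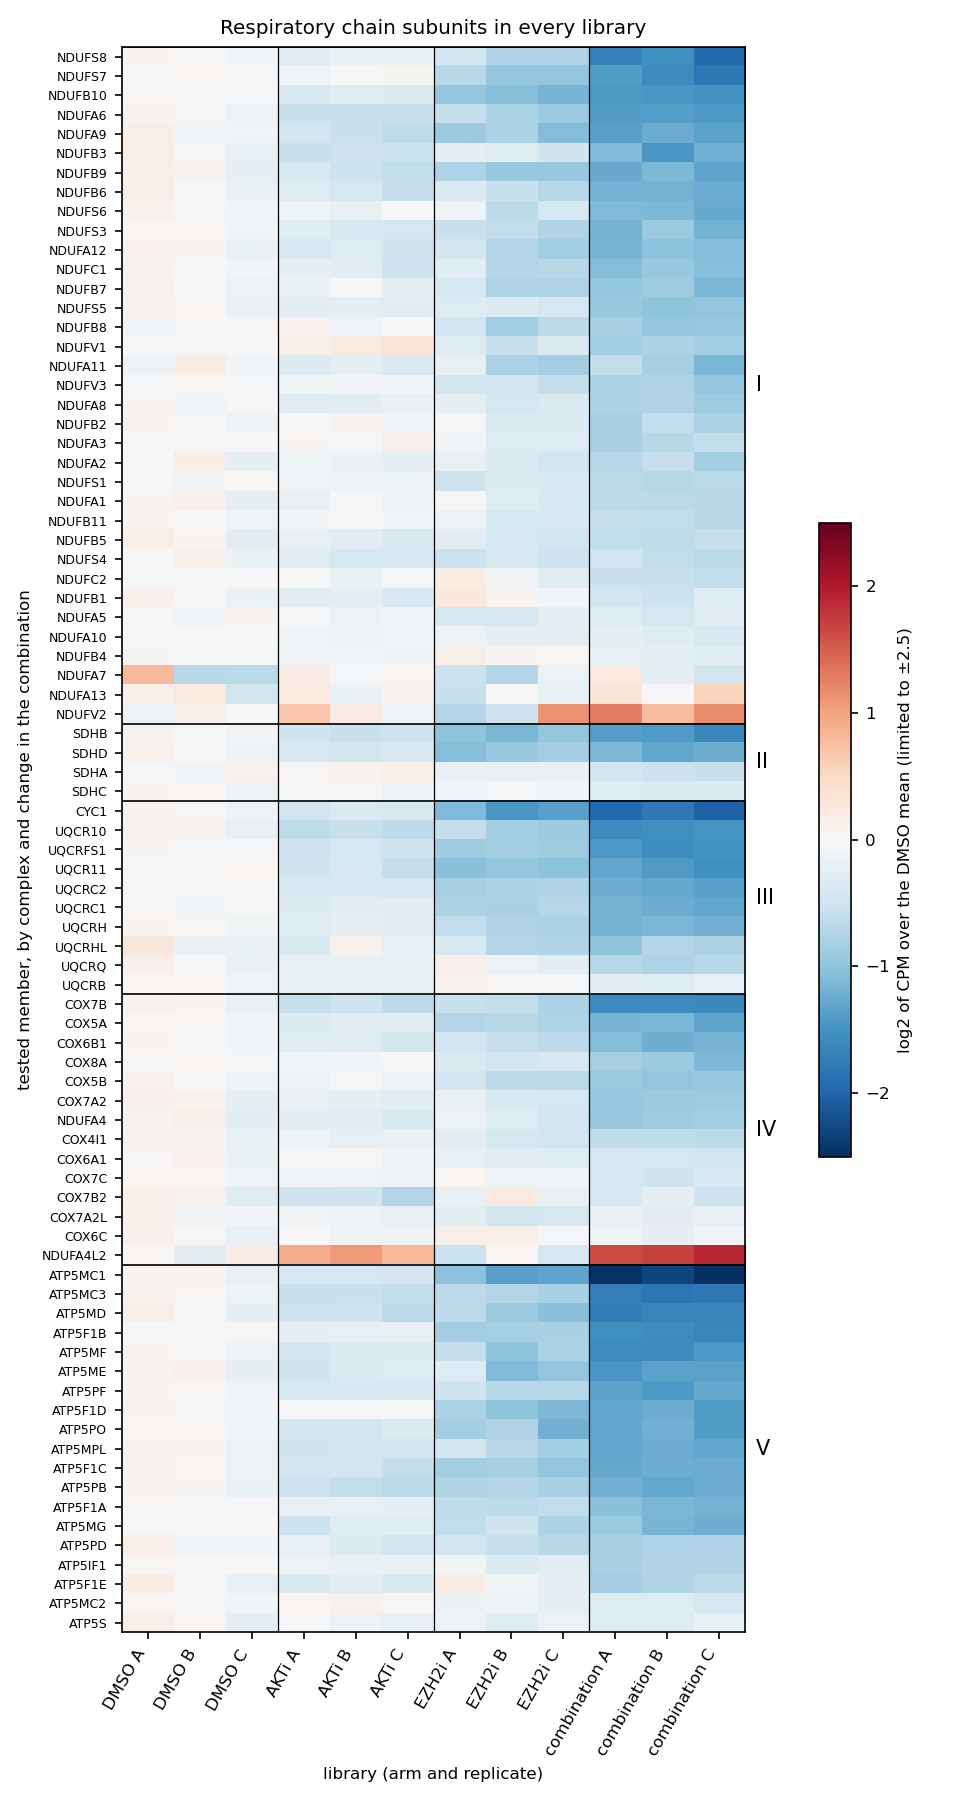
Level of the tested members (rows, by complex I to V, 1 member left out) in each of the 12 libraries (columns), as log2 of the library's CPM over the DMSO mean, blue for lower and red for higher and limited to ±2.5. Blue deepens from AKTi through EZH2i to the combination in most rows, while NDUFA4L2, in complex IV, is red in the AKTi and combination libraries.

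AKTi alone called 49 members lower and 2 higher, against 21.9% and 20.6% of all genes, with a median of -0.26. EZH2i alone called 68 lower and none higher, against 31.5% and 32.6%, with a median of -0.53. For EZH2i, edgeR with TMM called 0 members higher, 0 had an unadjusted p under 0.05 with a higher level, and DESeq2 called 0. With scaling by library size or upper quartile 4 members were called higher. In the means of the 4 arms, 60 of 83 members stepped down in the order DMSO, AKTi, EZH2i, combination, and the combination was the lowest arm for 76. How many of all tested genes follow these orders was not counted. Compared directly, the combination was lower than AKTi in 73 members and higher in 1 (background 32.1% lower and 32.1% higher), and lower than EZH2i in 70 and higher in 1 (background 25.7% and 21.1%). It was lower than both single agents in 27 of 36 genes of complex I, 4 of 4 of complex II, 8 of 10 of complex III, 10 of 14 of complex IV and 18 of 19 of complex V, which is 67 of 83 members against 19.7% of all tested genes. The comparisons with DMSO share their control libraries and are given side by side only.

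**Figure D2:**
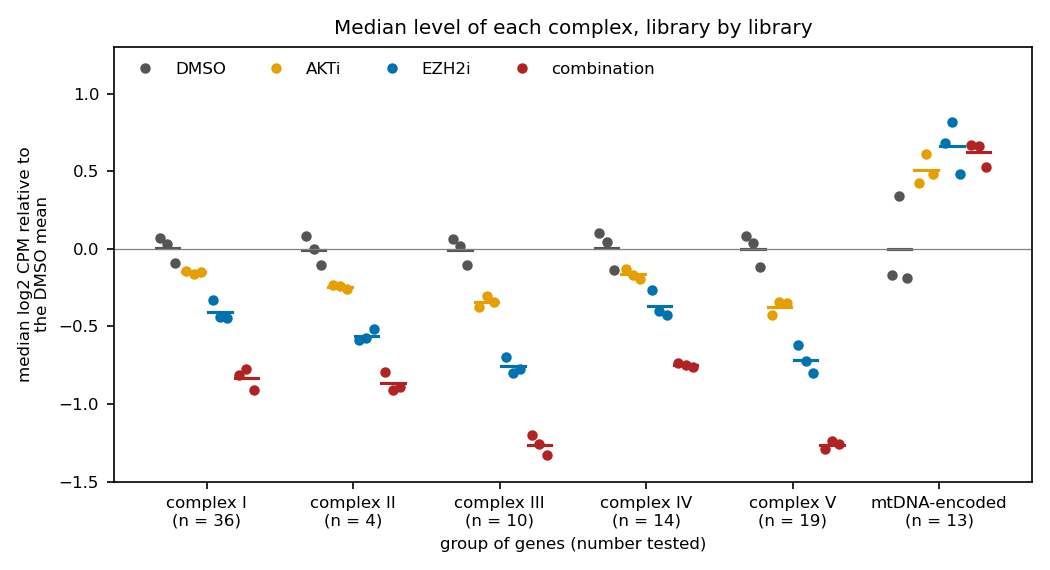
Median log2 CPM of each complex relative to its DMSO mean (vertical axis) in each of the 12 libraries, with a line at the mean of each arm, and the same for the 13 mRNAs encoded in mitochondrial DNA. In each complex the 3 combination libraries lie below all other libraries, between -0.91 and -0.74 for complexes I, II and IV and between -1.33 and -1.20 for complexes III and V.

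The medians of the complexes differed in depth of loss in each library, as their plot shows. The members behind them overlapped. In the combination the quartiles of the log2 fold change were -1.10 and -0.60 for complex I and -1.45 and -0.94 for complex V. Differences between complexes were not tested. In the combination libraries the median of complex I lay between -0.91 and -0.78, that of complex IV between -0.76 and -0.74, that of complex III between -1.33 and -1.20 and that of complex V between -1.29 and -1.24. Levels corrected for gene length (RPKM) shifted in the same way. Complex V made up 30.8% ± 0.58 of the summed RPKM of all members in DMSO and 24.6% ± 0.19 in the combination (SD, n = 3). Over the same arms complex III went from 15.6% ± 0.10 to 13.4% ± 0.16, complex I from 31.0% ± 0.31 to 35.4% ± 0.24 and complex IV from 20.9% ± 0.34 to 24.8% ± 0.30. These shares are dominated by a few abundant genes, ATP5F1B alone having 1032 RPKM in DMSO beside a median of 57.7 over the tested members. They also rest on the deposited gene lengths. Summed CPM, without length correction, were 7216 for complex V and 4109 for complex I in DMSO, and 2937 and 2341 in the combination. Across the 83 genes, members more abundant in DMSO had lower fold changes in the combination (Pearson r = -0.56, Spearman rho = -0.39). The DMSO libraries set both the level and the base of the fold change, which can by itself tilt such a correlation to negative values. The members called higher, NDUFV2 and NDUFA4L2, both had low levels. The correlation is therefore only a description across genes of the same libraries.

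Complex I is built from 7 nuclear core subunits that carry the flavin and iron-sulfur centers, from core subunits encoded in mitochondrial DNA, and from accessory subunits around them. Among the core genes, 6 of 7 fell in the combination (median -1.04), beside 27 of 29 other genes of complex I (median -0.81). NDUFS8, which holds a pair of iron-sulfur clusters near the coenzyme Q site, was at 126, 122 and 112 CPM in DMSO, at 98.4, 107 and 106 with AKTi, at 85.8, 71.3 and 71.3 with EZH2i, and at 37.0, 41.3 and 31.6 in the combination. The 4 arms of NDUFS8 did not overlap, and the fall in the combination was the largest of complex I (log2 fold change -1.71 ± 0.080 SE, edgeR adjusted p = 1.0e-20). NDUFS7, its neighbor that carries the last cluster of the chain, had 42.0, 44.0 and 41.0 CPM in DMSO and 39.3, 42.0 and 44.6 with AKTi, ranges that overlap. It was at 26.3, 21.2 and 21.3 CPM with EZH2i and 15.97, 13.95 and 12.02 in the combination (log2 fold change -1.59).

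Among other core genes NDUFS3 (-1.09), NDUFV1 (-0.83) and NDUFS1 (-0.68) were lower. NDUFV2 was called higher (1.09, adjusted p = 0.033), on 6 to 32 counts per library and 191 in all, while its pseudogene NDUFV2P1 collected 865. The call was lost with DESeq2, with a filter of 1 count in total, and without any of DMSO A (1.01), DMSO B (1.10), DMSO C (1.08), combination A (0.98) or combination C (1.04). Its level is uncertain, since the counting could split reads among near-identical or overlapping genes. The same holds for NDUFA13 and NDUFA7, which were not called and had at most 67 and 28 counts in a library. NDUFA13 and NDUFA7 lie almost wholly inside another protein-coding gene of the annotation, on the same strand for NDUFA13. NDUFV2 lies almost wholly inside an overlapping gene, and NDUFV2 and NDUFA7 each overlap 1 gene on the same strand. Among tested members, 14 overlap a same-strand gene and are covered to at least 90% by an overlapping gene on either strand. Their median was 12.2 RPKM in DMSO against 61.0 for the other 69, and their median log2 fold change -0.93 against -0.98.

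Among accessory genes of complex I, NDUFB10 (-1.47), NDUFA6 (-1.40) and NDUFA9 (-1.31) fell most. NDUFB4, one of the most abundant members at 554 CPM in DMSO, changed little (-0.24), and this call was lost with scaling by library size (-0.04) or upper quartile (-0.05). NDUFA10 (-0.31) and NDUFA5 (-0.33) also fell only slightly.

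Complex II, the 1 complex without a subunit from mitochondrial DNA, split into pairs. SDHB, the iron-sulfur subunit, had 118, 109 and 104 CPM in DMSO, 78.5, 74.6 and 77.4 with AKTi, 55.0, 49.8 and 56.1 with EZH2i, and 42.3, 41.2 and 36.3 in the combination. The arms did not overlap, and the log2 fold change was -1.46 ± 0.070 (SE). SDHD, a membrane anchor, fell by 1.21 on the log2 scale, from 146 ± 11.8 CPM to 63.0 ± 3.7 (SD, n = 3). SDHA, the flavoprotein that oxidizes succinate, had 201, 197 and 221 CPM in DMSO and 149, 143 and 140 in the combination (-0.52), and was not called in AKTi (0.09), where scaling by library size or upper quartile called it higher (0.14 with each, adjusted p = 0.029 and 0.025 by edgeR). SDHC, the other anchor, fell from 236 ± 17.5 to 188 ± 3.5 CPM (-0.33) and was called in neither single agent (-0.06 in each).

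In complex III, the 4 subunits CYC1 (cytochrome c1), UQCRFS1 (the Rieske iron-sulfur protein), UQCRC1 and UQCRC2 (the core proteins) fell in each treated arm, with a median of -0.40 with AKTi, -0.84 with EZH2i and -1.39 in the combination. CYC1, which passes the electron to cytochrome c, had 487, 472 and 423 CPM in DMSO, 331, 361 and 349 with AKTi, 214, 167 and 179.8 with EZH2i, and 120.0, 133 and 113 in the combination. All 4 arms of CYC1 were apart. Its fall in EZH2i (-1.30) was the largest of any member in that arm, and it fell by 1.91 on the log2 scale in the combination (adjusted p = 9.5e-24). UQCRFS1 followed from 285 ± 12.2 to 101 ± 4.0 CPM (-1.49). UQCR10, a small membrane subunit, had the largest fall of any member in AKTi (-0.61). UQCRB, which lies at a coenzyme Q site, was the exception at 228 ± 14.1 CPM in DMSO and 191 ± 5.5 in the combination (-0.26), a call lost with scaling by library size (-0.06) or upper quartile (-0.07).

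In complex IV the nuclear genes encode small subunits around a core from mitochondrial DNA. COX7B fell most (-1.60), from 176 ± 18.8 to 58.2 ± 0.51 CPM, followed by COX5A (-1.21) and COX6B1 (-1.16). COX6C was at 196, 185 and 159.6 CPM in DMSO and 170.5, 154 and 172 in the combination, overlapping ranges, and was not called (-0.12, adjusted p = 0.09). It was called lower in 6 of 12 fits that left out 1 library, without AKTi A (-0.18), AKTi B (-0.16), AKTi C (-0.16), DMSO C (-0.21), EZH2i A (-0.18) or EZH2i C (-0.14), and also with a filter of 1 count in total (-0.15, edgeR adjusted p = 0.044) and with only the libraries compared (-0.14, edgeR adjusted p = 0.041). COX7A2L, which is known for joining complexes III and IV into supercomplexes, was 83.8 ± 7.0 CPM in DMSO, 64.6 ± 4.7 in EZH2i and 71.7 ± 2.3 in the combination. Its small fall in the combination (-0.22) was lost with scaling by library size (-0.03) or upper quartile (-0.04).

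**Figure D3:**
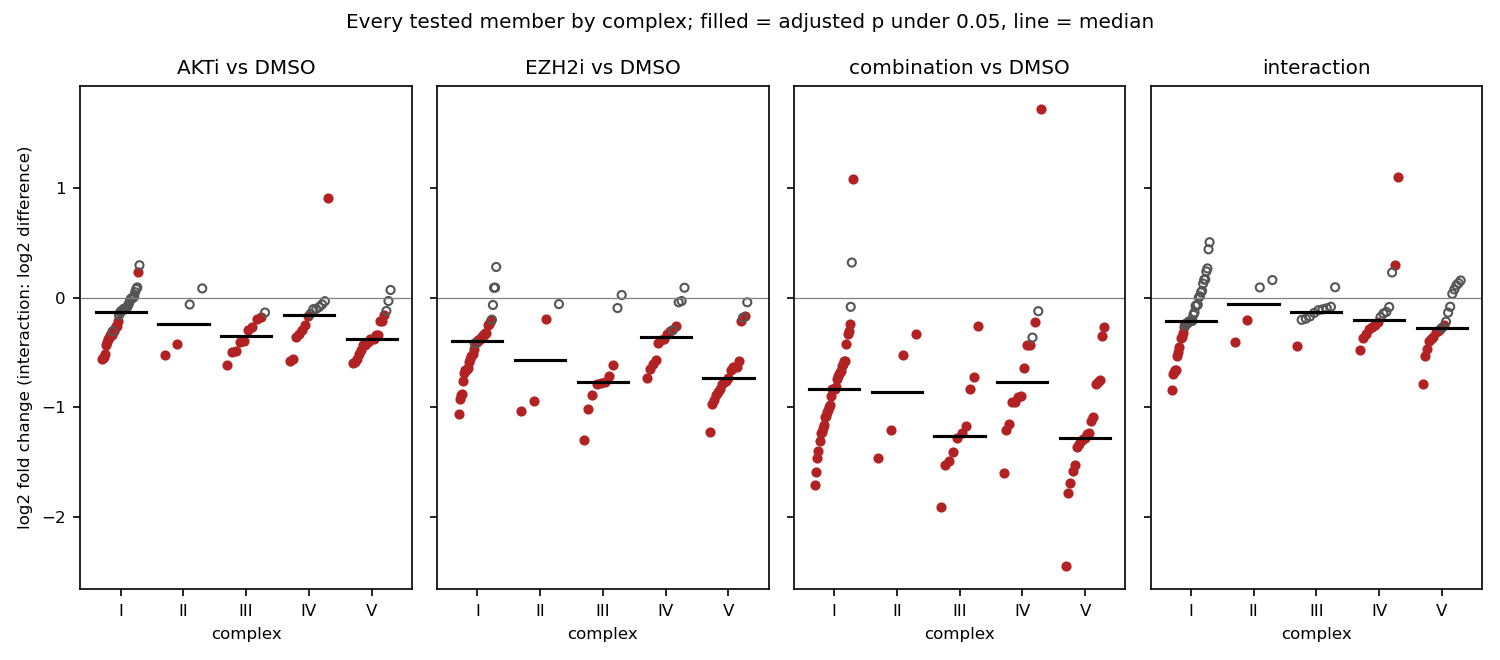
Log2 fold change of each tested member (points) by complex in AKTi, EZH2i and the combination against DMSO, and the interaction in the last panel, with filled points for an adjusted p under 0.05 and a line at the median. In the combination panel points reach from -2.45 (ATP5MC1, complex V) to 1.73 (NDUFA4L2, complex IV), and complexes III and V have no open points.

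Complex V has a catalytic F1 head, a peripheral stalk, a membrane part with small subunits, and the rotating c-ring. The 5 F1 genes all fell in the combination (median -1.25), as did the 4 peripheral stalk genes (median -1.27), the 5 small membrane genes (median -1.37) and the 3 c-ring genes (median -1.78). ATP5F1B, the catalytic beta subunit and the most abundant member, had 2405, 2339 and 2447 CPM in DMSO, 2046, 2080 and 2098 with AKTi, 1310, 1354 and 1362 with EZH2i, and 829.6, 804 and 771 in the combination. No arms overlapped, and the combination kept 33.4% of the DMSO level (-1.58 ± 0.051 SE, adjusted p = 1.2e-25). ATP5F1A, the alpha subunit that alternates with beta in the head, fell by 1.13 on the log2 scale, from 1446 ± 26.9 to 663 ± 31.4 CPM. ATP5MD, a small membrane subunit, fell from 235 ± 31.4 to 72.6 ± 2.9 CPM (-1.69). ATP5IF1, the inhibitor protein that stops the enzyme from hydrolysing ATP, fell by 0.77. ATP5S, a factor that is not a subunit of the enzyme, changed least in this complex (-0.27), and was not called with scaling by library size (-0.07) or upper quartile (-0.08) or without DMSO A (-0.19).

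The c-ring genes ATP5MC1, ATP5MC2 and ATP5MC3 encode the same mature c subunit behind different import peptides, and they parted. ATP5MC1 (chr17:48892765-48895871, hg38, plus strand) had 217, 219.8 and 183 CPM in DMSO, 154, 154 and 149.7 with AKTi, 101, 80.1 and 83.3 with EZH2i, and 37.5, 42.3 and 32.9 in the combination. All 4 arms were apart, and its log2 fold change of -2.45 ± 0.082 (SE, adjusted p = 4.7e-25) was the largest fall of any member. ATP5MC3 (chr2:175176258-175184607, minus strand) fell from 375 ± 29.1 to 109 ± 3.4 CPM (-1.78). ATP5MC2 (chr12:53632726-53677408, minus strand) had 252, 251 and 234 CPM in DMSO, 256, 264 and 254 with AKTi, 219.7, 226 and 209.7 with EZH2i, and 197, 198 and 184 in the combination. Its AKTi range lay above DMSO without being called (0.07, called with scaling by library size or upper quartile at 0.13), and its fall in the combination was small (-0.35, adjusted p = 4.6e-07). Of the summed RPKM of the 3 genes, ATP5MC1 made up 40.2% ± 1.2 in DMSO, 36.5% ± 0.26 with AKTi, 27.6% ± 2.3 with EZH2i and 18.2% ± 1.6 in the combination. ATP5MC2 went from 31.5% ± 1.1 through 40.4% ± 0.30 and 45.0% ± 2.2 to 61.4% ± 0.43. The sum itself went from 196 ± 14.5 to 78.9 ± 3.5 RPKM. These shares rest on the deposited gene lengths of 2615, 3991 and 6780 bases for ATP5MC1, ATP5MC2 and ATP5MC3. Without length correction ATP5MC3 was the highest of the 3 in DMSO, at 375 CPM.

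**Figure D4:**
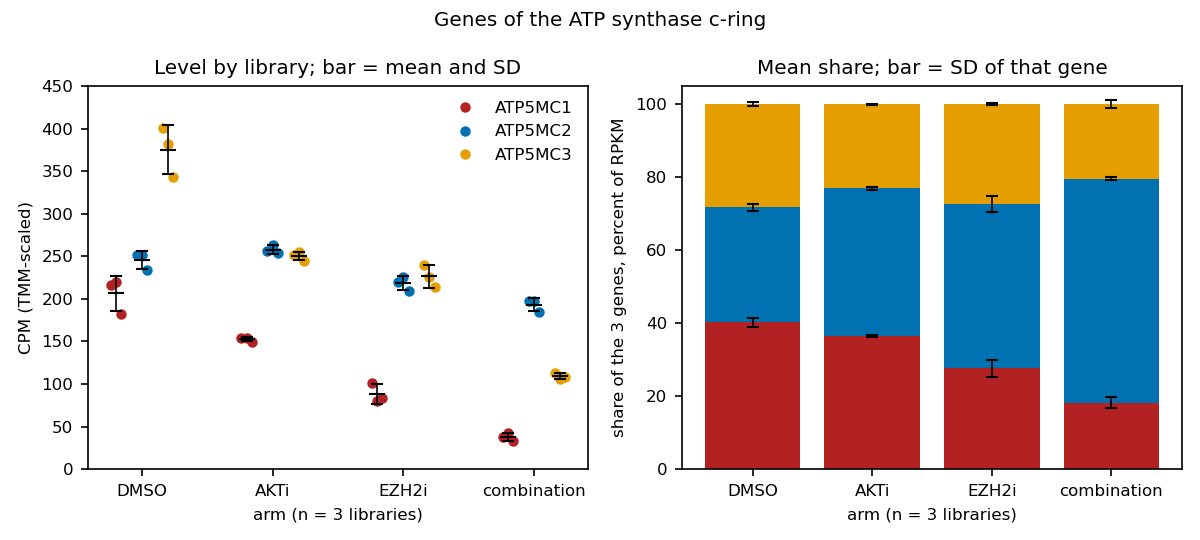
Left, CPM of ATP5MC1, ATP5MC2 and ATP5MC3 in each library by arm, with mean and SD. Right, mean share of each gene in the summed RPKM of the 3 (SD, n = 3); the ATP5MC2 share goes from 31.5% in DMSO to 61.4% in the combination, and the ATP5MC1 share from 40.2% to 18.2%.

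To compare a largest and a small change with the DNA in front of them, the 250 bases before the RefSeq start (GRCh38.p14) are shown for ATP5MC1 and ATP5MC2, and for NDUFS7 and SDHB, both among the lowest of their complex. The stretches are examples and do not stand for all members that fell far. For NDUFS8 and COX7B, which fell most in complexes I and IV, no match to the motifs below was found. Capitals mark matches on either strand to short core motifs of factors known at respiratory chain genes, namely GCGCATGC (NRF1), CCGGAAG (ETS family, GABPA), CACGTG (E-box of MYC and MAX) and AAGATGGC (YY1).
ATP5MC1, chr17:48892537-48892786, plus strand: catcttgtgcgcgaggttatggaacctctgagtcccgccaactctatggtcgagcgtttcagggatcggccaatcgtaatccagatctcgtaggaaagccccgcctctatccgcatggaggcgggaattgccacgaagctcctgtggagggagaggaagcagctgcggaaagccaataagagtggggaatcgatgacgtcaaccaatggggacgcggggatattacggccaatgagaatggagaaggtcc
ATP5MC2, chr12:53676084-53676333, minus strand: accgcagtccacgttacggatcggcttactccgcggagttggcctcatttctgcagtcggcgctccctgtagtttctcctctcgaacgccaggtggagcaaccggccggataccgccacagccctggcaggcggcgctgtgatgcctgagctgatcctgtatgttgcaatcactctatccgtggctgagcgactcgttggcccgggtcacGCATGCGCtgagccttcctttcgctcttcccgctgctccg
NDUFS7, chr19:1383657-1383906, plus strand: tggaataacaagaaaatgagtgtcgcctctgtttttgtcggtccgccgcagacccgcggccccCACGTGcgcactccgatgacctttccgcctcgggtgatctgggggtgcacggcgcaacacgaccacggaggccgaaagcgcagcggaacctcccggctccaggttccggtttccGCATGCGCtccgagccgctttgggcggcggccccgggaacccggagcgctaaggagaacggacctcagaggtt
SDHB, chr1:17054033-17054282, minus strand: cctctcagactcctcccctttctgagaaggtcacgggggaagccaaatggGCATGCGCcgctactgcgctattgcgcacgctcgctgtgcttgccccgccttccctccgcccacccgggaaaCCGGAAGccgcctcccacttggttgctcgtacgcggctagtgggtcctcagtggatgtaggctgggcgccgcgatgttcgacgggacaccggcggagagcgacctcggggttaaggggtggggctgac

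ATP5MC1 has no match in the bases shown and a CACGTG that begins 4 bases after the start. Also past the bases shown, a YY1 match begins 17 bases after the start in NDUFS7 and 10 bases after it in SDHB. The ATP5MC2 and NDUFS7 stretches lie inside the gene coordinates of the count file, and the SDHB and ATP5MC1 stretches lie partly inside them. RefSeq windows of 300 bases (250 before to 50 after the start) were matched to 72 of the 91 members. The NRF1 motif was found in 13 of them (18.1%), against 3.74% of 22198 windows of protein-coding genes, and the YY1 motif in 11 (15.3%) against 3.53%. The ETS motif was in 20 (27.8%) against 12.8%, and CACGTG in 7 (9.72%) against 8.34%. Tested members with and without a motif had median log2 fold changes in the combination of -1.21 and -0.90 for NRF1, -1.29 and -0.90 for YY1, -1.04 and -0.90 for ETS, and -1.37 and -0.91 for CACGTG. No test was run on these groups, and a match is not evidence of binding.

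Of 11 pairs of isoforms or paralogues, 5 had both genes tested, and their length-corrected log2 ratios were compared by a two-sided exact permutation test of 3 libraries against 3, whose smallest p is 0.1, so that no pair could pass 0.05. NDUFA4L2 (chr12:57234903-57240715, minus strand), known as a hypoxia-responsive relative of NDUFA4, had 3.90, 3.10 and 4.32 CPM in DMSO, 7.16, 7.85 and 6.60 with AKTi, 2.61, 3.92 and 2.80 with EZH2i, and 11.76, 12.28 and 13.96 in the combination. AKTi libraries lay above DMSO and combination libraries above AKTi, while EZH2i overlapped DMSO. It rose in AKTi (0.91) and the combination (1.73 ± 0.17 SE, adjusted p = 2.1e-11), and EZH2i was not called (-0.30) except without EZH2i B (-0.49). NDUFA4, a subunit of complex IV, fell from 372 ± 55.3 to 199 ± 5.6 CPM (-0.90). The NDUFA4L2 share of the pair went from 1.32% ± 0.40 to 7.47% ± 0.50, a log2 ratio difference of 2.64 (exact p = 0.1, adjusted over 5 pairs 0.125).

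COX7B2, a testis-type isoform, had 4.75 ± 0.80 CPM in DMSO and 3.65 ± 0.36 in the combination (-0.36, not called, but called without DMSO C at -0.52), while COX7B fell. In AKTi COX7B2 was called lower. Among other settings, that call was lost with DESeq2 (-0.58), scaling by library size (-0.50) or upper quartile (-0.51), and without DMSO A (-0.47). Its share of the pair went from 9.17% ± 0.55 to 19.1% ± 1.4 (log2 ratio difference 1.23, exact p = 0.1, adjusted 0.125). The log2 ratio of ATP5MC2 to ATP5MC1 differed from DMSO by 0.50 with AKTi, 1.06 with EZH2i and 2.11 in the combination (exact p = 0.1 each, adjusted 0.167, 0.167 and 0.125), where no library overlapped DMSO. The ratio of ATP5MC3 to ATP5MC1 differed by -0.15 with AKTi, 0.50 with EZH2i and 0.68 in the combination (exact p = 0.1 each, adjusted 0.167, 0.167 and 0.125). UQCRHL, a near-identical copy of UQCRH whose reads could be split with it, held 1.02% ± 0.15 of its pair in DMSO and 1.29% ± 0.11 in the combination (exact p = 0.2).

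**Figure D5:**
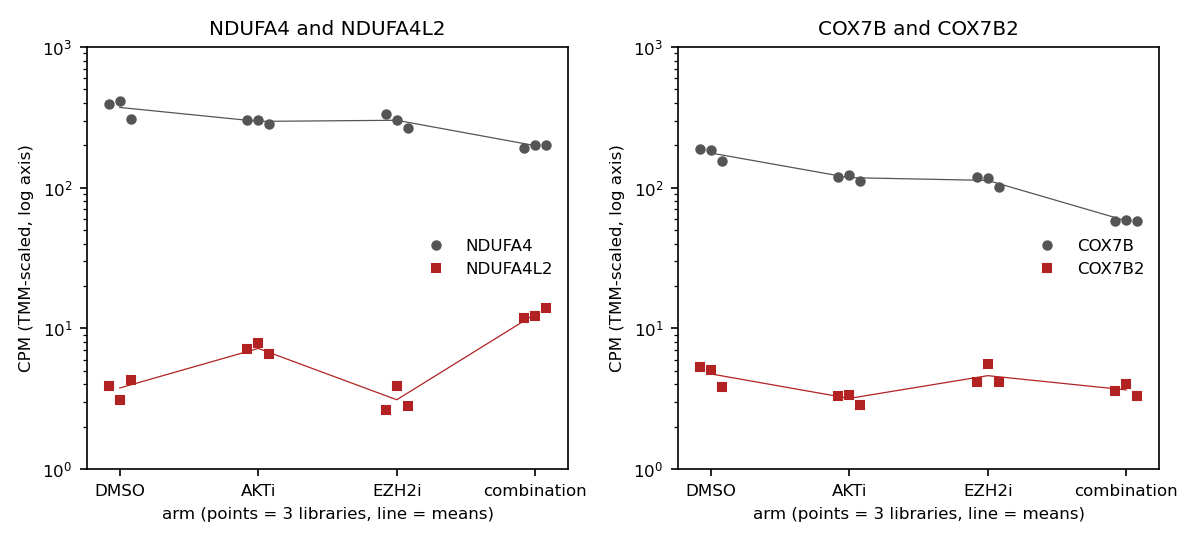
CPM on a log axis of NDUFA4 and NDUFA4L2 (left) and of COX7B and COX7B2 (right) in each library by arm, with lines through the means. NDUFA4L2 goes from 3.77 CPM in DMSO to 12.7 in the combination while NDUFA4 goes from 372 to 199, and COX7B2 lies between 2.85 and 5.55 CPM over all libraries.

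The other tissue-specific isoforms were at or near 0. COX4I2 (lung), COX6A2 (heart and muscle) and the readthrough gene NDUFC2-KCTD14 had no count in any library, which allows up to 3 counts in a library total. COX8C had 1 count in all, ATP5MGL 5, ATP5MF-PTCD1 6 and COX6B2 (testis) 9. COX7A1 (heart and muscle) had 39 counts, at most 11 in a library. These 8 members failed the filter and were not tested.

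Whether the agents did more together than the sum of their separate log2 changes was asked with the interaction, which takes the log2 change of the combination and subtracts those of each single agent. It was called negative in 33 of the 83 members and positive in 2, against 17.5% and 10.7% of all genes. Without DMSO C the positive calls were 5. By complex, 13 of 36 genes of complex I, 2 of 4 of complex II, 1 of 10 of complex III, 7 of 14 of complex IV and 10 of 19 of complex V were called negative. Some of these calls were fragile. SDHC and COX6B1 lost the call with either count filter and in several fits that left out 1 library. NDUFA4 lost it with DESeq2, upper-quartile scaling or at least 10 counts in every library, and in most fits that left out 1 library. NDUFB3, NDUFB4, ATP5F1D and ATP5F1E lost it only in fits that left out 1 library. In complex I the core stood lower than the rest, with 4 of 7 core genes called and a median of -0.66, beside 9 of 29 and -0.21; the difference between these groups was not tested. NDUFS8 (-0.84 ± 0.11 SE), NDUFS7 (-0.69) and NDUFV1 (-0.66) were among the core genes called, and the accessory NDUFS6 was at -0.68. ATP5MC1 was called too (-0.79), as were the other c-ring genes ATP5MC3 (-0.47) and ATP5MC2 (-0.25, not called without AKTi B at -0.20). None of the 4 core genes of complex III was called by edgeR or by DESeq2, with values of -0.20 to -0.10 and an unadjusted p under 0.05 for 2 of them. CYC1 was called without EZH2i B (-0.28) or combination B (-0.27) and UQCRC1 without AKTi A (-0.23) or EZH2i A (-0.21). UQCRQ was the 1 gene of complex III called by edgeR with TMM (-0.44). UQCRH, known as the hinge protein that helps cytochrome c dock, was called with DESeq2 (-0.19, adjusted p = 0.038) and by edgeR with scaling by library size (-0.20) or without DMSO A (-0.23) or AKTi A (-0.24). The positive calls were NDUFA4L2 (1.11) and COX7A2L (0.30). The latter was lost without DMSO A (0.23) or EZH2i B (0.26).

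NDUFV1, which binds NADH and starts electron flow, was called higher in AKTi, as was the much less abundant NDUFA4L2, and under TMM scaling the 1 other member called higher in a single agent was NDUFB4 in EZH2i, with a filter of at least 10 counts in every library (0.13). With scaling by library size or upper quartile, SDHA and ATP5MC2 joined them in AKTi, and in EZH2i the higher calls were NDUFB4 (0.24 and 0.21), COX6C (0.24 and 0.21), NDUFB1 (0.24 and 0.21) and UQCRB (0.17 and 0.14). NDUFV1 had 188, 183 and 188 CPM in DMSO, 205, 218 and 234 with AKTi, 149.5, 127 and 146 with EZH2i, and 104, 108 and 102 in the combination. AKTi libraries lay above DMSO (0.23, adjusted p = 0.0015, lost without AKTi C at 0.16), and combination libraries lay below those of EZH2i (-0.43). EZH2i against AKTi called 54 members lower and 7 higher (background 25.1% and 25.4%), and the lower calls were 41 with scaling by library size and 48 to 64 without 1 library. The 7 were NDUFB1 (0.39), NDUFB3 (0.20), NDUFB4 (0.19), UQCRB (0.20), COX6C (0.18), COX7B2 (0.53) and ATP5F1E (0.30). Of these, NDUFB1, NDUFB4 and UQCRB kept the call in each fit that left out 1 library, ATP5F1E lost it only without EZH2i A (0.15), and NDUFB3, COX6C and COX7B2 lost it in 5 or more of the 12 fits. ATP5F1E, the epsilon subunit of the F1 head, had 180.3 ± 24.4 CPM in DMSO, 142 ± 6.3 with AKTi, 175 ± 26.1 with EZH2i and 107 ± 8.25 in the combination.

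Genes that work beside the subunits were followed with lists. The 13 mRNAs from mitochondrial DNA, core subunits of the same complexes, were all called higher in the combination (median 0.55), in AKTi (0.46) and in EZH2i (0.63), against 38.0%, 20.6% and 32.6% of all tested genes. Compared directly with EZH2i, the combination had 2 of them lower and 2 higher (median -0.07), and compared with AKTi 4 higher (median 0.09). The interaction was called negative for 12 of 13 (median -0.52), against 17.5% of all genes. DMSO B stood apart for them, at a median of 0.34 beside -0.17 and -0.19 in DMSO A and C, and the 9 treated libraries lay between 0.42 and 0.81, above all 3. Without DMSO B the medians were 0.73 in the combination, 0.66 in AKTi and 0.78 in EZH2i, and the interaction was called negative for 13 (median -0.70), while without DMSO A or DMSO C it was called for 9 (medians -0.45 and -0.42). Among 9 tested electron carriers and other enzymes that reduce coenzyme Q, 7 were lower in the combination and 2 higher (median -0.75), against 35.2% and 38.0% of all genes. CYCS, cytochrome c, fell from 737 CPM in DMSO to 401 with AKTi, 287 with EZH2i and 132 in the combination (log2 fold change -2.48). AIFM2 (1.02) and SQOR (0.47) were the higher ones, at 1.90 and 11.6 CPM in DMSO. Of 11 genes for coenzyme Q synthesis, 10 fell (median -0.67) against the same 35.2%, and COQ7 (0.05) was not called. PDSS1, which with PDSS2 makes the isoprenoid tail, fell by 3.24, from 36.5 to 3.86 CPM. Of 12 regulators of respiratory chain genes, 6 fell and 3 rose (50% and 25%, median -0.22), shares near those of all genes, so the count says nothing particular to the list. The 6 included the coactivators PPARGC1B (-1.77) and PPRC1 (-1.28), the mitochondrial transcription factor TFAM (-1.25) and GABPB1 (-1.12), and CREB1, YY1 and SP1 were the 3 higher (0.62, 0.12 and 0.17). NRF1 was lower in each single agent (-0.43 and -0.50) and not called in the combination (0.08).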

How the data were processed

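The authors aligned reads to hg38 with STAR and counted them per gene with HTSeq, and the deposited counts are whole numbers for 58735 genes, with 1 gene length column in bases that belongs to no sample. Their versions, the annotation release and whether counting used strand are not given in the sources used here, so reads of overlapping or near-identical genes may be split or lost. Of the members, 59 overlap another gene in the files' coordinates, 34 of them on the same strand. A second deposited file of DESeq2-normalized values was not used, and no sample column was left unmapped (0). The members, gene lists and tests were chosen with earlier results of these data known.

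Counts were analysed in R 4.3.3 and edgeR 4.0.16. Low genes were removed by filterByExpr at its defaults (10 counts, 15 in total), followed by TMM scaling, 1 mean per arm over all 12 libraries, quasi-likelihood tests of 7 contrasts and Benjamini-Hochberg adjustment over 16646 genes at 0.05. CPM are TMM-scaled; RPKM divide them by gene length. Isoform ratios used an offset of 0.5 counts, and a count of 0 allows up to 3 counts. At these depths counting error is small for most members, and such limits cover counting error only. Named genes were drawn from the extremes of each complex (3 lowest, 2 highest) and of AKTi, EZH2i and the interaction (3 and 3). They also came from the isoform pairs, the core genes of complexes I to III and of the F1 head, members under the filter and members called against their complex. Not every gene of these groups is named, and further members were named after their values were seen. On simulated data of 16112 genes, the test recovered 158 of 196 changed 2-fold in the combination against DMSO, and wrongly called 6 others. For the interaction it recovered 130 of 196 and wrongly called 8. There few genes changed, in random directions, while most genes changed here, so the simulation gives no error rate for these data. The alternatives tried were library-size or upper-quartile scaling, DESeq2 1.42.0, other count filters and only the libraries compared. Further ones were a replicate block, each library left out and other assignments of members. Chosen after seeing the data were medians without the 14 largely covered members that overlap a same-strand gene. Replicate libraries differed by more than sampling noise. The values of 1 member are not reported here by gene, and it stays in all counts and medians.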

Additional observations from a re-analysis of the deposited data

Results flagged for a closer look

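NDUFV1, the NADH-binding core subunit of complex I, was singled out because AKT inhibition moved it in opposite directions without and with EZH2 inhibition, and the test of that difference passed. Its log2 fold change was 0.23 in AKTi against DMSO and -0.43 in the combination against EZH2i, an interaction of -0.66 (edgeR adjusted p = 1.2e-07). All 3 AKTi libraries lay above the DMSO libraries, and all 3 combination libraries below those of EZH2i. The rise in AKTi was not called without AKTi C (0.16).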

How the results depend on the processing

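No call turned its direction under an alternative. With scaling by library size the medians of complexes I to V in the combination were -0.63, -0.67, -1.06, -0.58 and -1.08, and with upper-quartile scaling -0.65, -0.68, -1.08, -0.59 and -1.09. With at least 10 counts in every library, complexes II to V were at -0.80, -1.19, -0.70 and -1.21. The median of complex IV was -0.45 with DESeq2 and -0.47 with at least 1 count in total (both test 88 members), -0.79 with only the libraries compared and -0.91 without readthrough, inhibitor and paralogue members. Chosen after seeing the data, leaving out the 14 largely covered members that overlap a same-strand gene gave -0.52 for complex II. Leaving out each library in turn, the medians ran from -0.89 to -0.78, -0.92 to -0.85, -1.32 to -1.23, -0.86 to -0.73 and -1.35 to -1.24. Higher calls in the combination against DMSO were 1 with DESeq2 and with either count filter, and those in the interaction 1 with at least 1 count in total. Higher calls in AKTi were 4 and in EZH2i 4 with scaling by library size or upper quartile, and 1 in EZH2i with at least 10 counts. In the combination against EZH2i they were 2 with either of these scalings, at least 10 counts, or only the libraries compared. Without 1 library, higher calls ran from 1 to 2 (combination against DMSO), 1 to 2 (AKTi), 1 to 2 (combination against EZH2i), 4 to 7 (EZH2i against AKTi) and 1 to 5 (interaction), and lower calls from 76 to 79 in the combination, 41 to 55 in AKTi, 67 to 71 in EZH2i, 48 to 64 in EZH2i against AKTi and 22 to 34 in the interaction. Under all other settings lower calls ran from 71 to 78, 43 to 50, 58 to 68, 41 to 54 and 29 to 34 in the same order, and from 69 to 73 and 65 to 70 in the combination against AKTi and EZH2i. The cause of these shifts was not tested.

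The replicate letters gave no pairing, as deviations of same-letter libraries correlated at r = -0.058 to 0.069 over 18 pairs. With a replicate block 77 members were called lower in the combination against DMSO and 34 in the interaction. Depth limits members with few counts, such as NDUFV2.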
